A study of Mus musculus with 7 samples.

Results

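The 10 genes of 4 neuropeptide systems described here, out of the 39017 genes in the deposited table, were measured in mouse hippocampus. They were chosen by symbol and matched to Ensembl IDs through the GENCODE M21 annotation. The set comprises the ligand genes Vip, Adcyap1, Cck and Crh, the receptor genes Vipr1, Vipr2, Adcyap1r1, Cckbr and Crhr1, and the gene of the binding protein Crhbp. The measurement was a read count per gene after TRAP (translating ribosome affinity purification), a pull-down of GFP-tagged ribosomes with their RNA. The mice carried GAD2 cre and L10-EGFP, so that ribosomes are tagged where Gad2-driven Cre has acted, in cells that made Gad2 at any time, and each TRAP sample was a pool of 2 hippocampi. Of the 7 libraries, 3 are bound (pulled-down RNA, titles GAD_ctrl) and 4 are unbound (RNA left behind). All come from hippocampus and no other treatment is labelled. Within the unbound group, unbound replicates 1 and 2 have titles starting with UBS and replicates 3 and 4 titles starting with UBGS. What sets UBS apart from UBGS, which animals gave which library, and the age, sex and strain are not given in the labels, so a p-value here reflects only how far these libraries scatter, which could be technical scatter.

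Vasoactive intestinal peptide (VIP) and pituitary adenylate cyclase-activating polypeptide (PACAP, encoded by Adcyap1) are related peptides. VPAC1 (Vipr1) and VPAC2 (Vipr2) bind both with like affinity, whereas PAC1 (Adcyap1r1) prefers PACAP, and all of them couple mainly to Gs and raise cyclic AMP. Cholecystokinin (CCK) acts in the forebrain mostly through the CCK-B receptor (Cckbr), which couples to Gq and phospholipase C. Corticotropin-releasing hormone (CRH) acts through the Gs-coupled receptor CRHR1 and is held back by the secreted CRH-binding protein (Crhbp). In the hippocampus, VIP marks interneurons that often target other interneurons, CCK marks a class of basket cell and is also made by pyramidal cells, CRH is made by a subset of interneurons, and PACAP is known mainly from excitatory cells.

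Library totals ranged from 38690380 to 51953811 counts. Levels are given as CPM, counts scaled to library size with TMM correction. Gad2, whose promoter drives the Cre, was at 722 to 758 CPM in the bound group against 112 to 189.5 CPM in the unbound group. Slc17a7, which marks excitatory neurons, went from 487 to 525 CPM unbound down to 12.9 to 17.6 CPM bound. Each log2 fold change, taken as the bound level over the unbound one, came from edgeR's quasi-likelihood test over all genes, with its standard error (SE). Of 19563 genes tested, 61.7% passed an adjusted p of 0.05 in edgeR. The bound level was the higher one for 31% and the lower one for 30.7%, so a call by itself was common in these data. This split, 6072 higher and 6004 lower, became 9284 and 3704 when counts were scaled by library totals alone. These totals include mitochondria-encoded genes, which held 28.5% to 32.9% of counts in unbound and 0.0867% to 0.123% in bound libraries. The part of these genes in that change was not tested. Of the 10 genes of the peptide systems, all of which passed the filter on low counts, 4 were higher (Vip, Crh, Crhbp, Adcyap1r1), 2 were lower (Adcyap1, Vipr1) and 4 were not called (Cck, Cckbr, Vipr2, Crhr1). For 7 of the 10, no bound library reached into the unbound range, as for 63.3% of all genes tested.

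**Figure D1:**
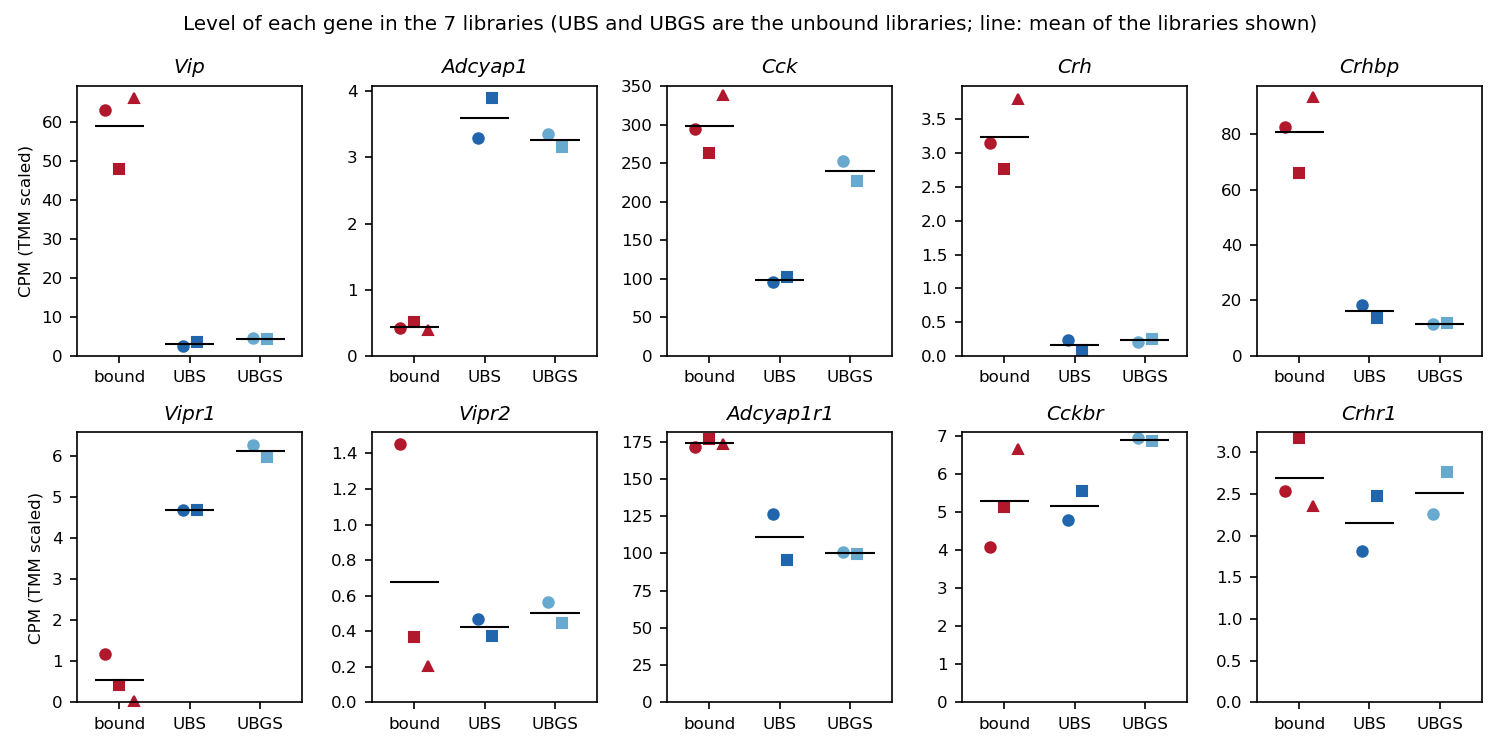
Level of each of the 10 genes (vertical axes, TMM-scaled CPM, each starting at 0) in the 3 bound, 2 UBS and 2 UBGS libraries; circles, squares and triangles are replicates and lines are means. Vip, Crh and Crhbp lie far above both unbound series in every bound library, Adcyap1 and Vipr1 lie below them, and Cck in UBGS libraries (227 and 253 CPM) lies close under the bound libraries (263 to 338 CPM).

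Among the ligands, Vip was measured at 63.1, 48.0 and 66.1 CPM in bound replicates 1 to 3. It stood at 2.47 and 3.575 CPM in the UBS libraries and at 4.56 and 4.30 CPM in the UBGS libraries. Every bound library held more than 10 times the level of every unbound one. The difference was 15.8-fold (59.1 ± 9.69 CPM, SD, n = 3, against 3.72 ± 0.935 CPM, SD, n = 4; log2 3.98, SE 0.19, edgeR adjusted p = 3.1e-08). The fold change of Vip was higher than that of 98.9% of all genes tested. In a bulk library, a level that is low because few cells make the RNA and one that is low because each cell holds little cannot be told apart.

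Crh, which encodes the peptide that starts the hormonal stress response and acts as a local transmitter in the hippocampus, was scarcer and differed by as much. Its counts were 184, 173 and 168 in the bound libraries and 8, 4, 9 and 10 in unbound replicates 1 to 4. These are 3.15, 2.77 and 3.81 CPM for bound replicates 1 to 3 and 0.0935 to 0.247 CPM for the unbound group. The groups did not overlap, and Crh was 16.4-fold higher in bound libraries (log2 4.03, SE 0.37, edgeR adjusted p = 3.6e-06). With at most 10 counts in an unbound library, counting error limits the unbound level and so the size of the fold.

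Adcyap1, the PACAP gene, went the other way. It stood at 0.428, 0.512 and 0.385 CPM in bound replicates 1 to 3, from 25, 32 and 17 counts. The unbound libraries held 3.29 and 3.90 CPM (UBS) and 3.36 and 3.16 CPM (UBGS), from 112 to 167 counts. All bound libraries lay below all unbound libraries, which differed little among themselves. Adcyap1 was 7.68-fold lower in bound libraries (0.442 ± 0.0645 CPM, SD, n = 3, against 3.43 ± 0.327 CPM, SD, n = 4; log2 −2.94, SE 0.28, edgeR adjusted p = 4.1e-06). The related peptide genes Vip and Adcyap1 were thus on opposite sides, with log2 fold changes of 3.98 and −2.94. Levels of the excitatory marker list move in the same direction as Adcyap1 (8 of 8 genes lower, summed, 837 to 1018 CPM bound against 3947 to 6060 CPM unbound, none at 0), and so do those of astrocyte markers (5 of 6 lower, 270.3 to 296 against 2085 to 3047 CPM), oligodendrocyte markers (6 of 6 lower, 287 to 351 against 1103 to 1279 CPM), endothelial markers (4 of 6 lower, 3.47 to 9.50 against 13.6 to 24.9 CPM) and choroid plexus markers (5 of 5 lower). The part of RNA from any of these cell types in the Adcyap1 difference was not tested.

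Promoter sequences are shown for Vip, Adcyap1 and Cck, because these ligand genes share a stretch of letters upstream of the start while their RNAs lay on different sides of the comparison. RefSeq sequences (GRCm38.p6, the assembly of mm10) matched 9 of the 10 genes by symbol, and Crh had none. The core of the cyclic AMP response element, TGACG, was searched in the 250 bases before the start, where 17.9% of 32536 promoters hold it on either strand. It was found before 5 of the 9 genes, namely Vip, Adcyap1, Cck, Vipr1 and Crhbp. The longer TGACGT, which contains it and which 6.5% of promoters hold, was found before Vip and Adcyap1, and the full palindrome TGACGTCA, held by 1.56%, before none of the 9. In the 100 bases before each start, 5′ to 3′ on the gene's strand, the core is in capitals, read as CGTCA where it lies on the other strand.
Vip: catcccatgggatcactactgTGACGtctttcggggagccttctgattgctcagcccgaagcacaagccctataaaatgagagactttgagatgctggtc
Adcyap1: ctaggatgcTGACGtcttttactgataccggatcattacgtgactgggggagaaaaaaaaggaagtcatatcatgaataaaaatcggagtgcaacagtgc
Cck: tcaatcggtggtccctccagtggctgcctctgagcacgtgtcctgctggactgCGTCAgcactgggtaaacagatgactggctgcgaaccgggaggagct
The windows lie at chr10:5639118-5639217 on the plus strand for Vip, chr17:93198917-93199016 on the plus strand for Adcyap1 and chr9:121495695-121495794 on the minus strand for Cck. The core begins 79 bases before the Vip start, 91 bases before the first of the 2 Adcyap1 starts in RefSeq and 47 bases before the Cck start. A match of letters is a description of these windows and not a bound site.

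Cck, whose peptide marks a class of basket cell, was the most abundant of the 10 genes, and its place depended on which unbound libraries it was set against. Bound replicates 1 to 3 held 295, 263 and 338 CPM. The UBS libraries held 95.5 and 102.6 CPM and the UBGS libraries 253 and 227 CPM. The bound libraries lay above all unbound libraries, by a wide margin over UBS and by a narrow one over UBGS. Against all 4 unbound libraries the difference was 1.76-fold and not called (298.6 ± 37.6 CPM, SD, n = 3, against 169.6 ± 82.2 CPM, SD, n = 4; log2 0.815, SE 0.365, 95% interval −0.04 to 1.67, edgeR adjusted p = 0.089).

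Taken apart, the title series gave different sizes for Cck. Against the UBS libraries alone, Cck was 3.01-fold higher in bound libraries (log2 1.59, SE 0.12, edgeR adjusted p = 7.8e-06), where 49.9% of genes were called, 25.8% higher and 24.1% lower. Against the UBGS libraries alone it was 1.26-fold higher (log2 0.33, SE 0.11, edgeR adjusted p = 0.035), where 53.9% of genes were called, 28.2% higher and 25.6% lower. The difference between the series was itself tested within the 4 unbound libraries, where Cck was 2.43-fold lower in UBS (log2 −1.28, SE 0.08, 95% interval −1.475 to −1.08, edgeR adjusted p = 0.0048), the 13th smallest p among 19256 genes, of which 0.229% were called. That Cck differs between the series was known when the 10 genes were chosen, so this value describes its size. Gad2 was higher in UBS by 0.715 on the log2 scale (SE 0.06, edgeR adjusted p = 0.022, but 0.19 without unbound replicate 3 and 0.068 without unbound replicate 4), and Slc17a7 had almost the same mean in both series (506 and 505 CPM). The summed levels of the 7 lists of general cell type markers lay higher in both UBS libraries than in both UBGS libraries. For excitatory markers, the sums were 6060 and 4746 CPM in UBS and 4136 and 3947 CPM in UBGS, for astrocyte markers 3047 and 2898 against 2085 and 2103 CPM, and for choroid plexus markers 1438 and 1716 against 1008 and 989.6 CPM. Each of these sums rested mostly on a single gene. Unbound means were 3425 ± 951 CPM for Camk2a, 2084 ± 441 CPM for Slc1a2 and 1195 ± 335 CPM for Ttr (SD, n = 4). These genes did not pass between the series (edgeR adjusted p = 0.18, 0.051 and 0.081), so the sums do not speak for every gene of a list. The GABAergic, oligodendrocyte, microglia and endothelial sums also lay higher in both UBS libraries, opposite to Cck. Of the 8 GABAergic markers, only Gad2 passed between the series (means of 185.7 CPM in UBS and 113 CPM in UBGS). That sum therefore does not speak for GABAergic markers in general. No gene of the oligodendrocyte, microglia or endothelial list passed between the series. The sum of the VIP and CCK interneuron markers was slightly lower in UBS (621 and 624.6 against 628 and 626 CPM). Of that sum, Prox1, also a marker of dentate granule cells, held 302.5 ± 12.2 CPM in unbound libraries (SD, n = 4), and the small gap was not tested. The part of any of these lists in the Cck difference was not tested. Among the genes of the excitatory, astrocyte and choroid plexus lists, Slc1a3, an astrocyte glutamate transporter, passed between the series (edgeR adjusted p = 0.032).

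The value for Cck also changed with an exon length offset. In bound over unbound libraries, short genes stood higher than long ones. At the 1305 merged exon bases of Cck, the trend over protein-coding genes was 0.65 on the log2 scale (0.64 for Crh, 0.46 for Crhbp). The trend was fitted to this same comparison, so it cannot part exon length from other traits of short genes. With this trend taken out by an offset, Cck stood at 0.17 against all unbound libraries (edgeR adjusted p = 0.72), at 0.94 against UBS alone (edgeR adjusted p = 0.00017) and at −0.32 against UBGS alone (edgeR adjusted p = 0.041), the sign turning for UBGS. With library totals in place of TMM, which moved the median of all genes from −0.01 to 0.43, Cck was called higher against all unbound libraries (1.24, edgeR adjusted p = 0.014). The settings that combine a scaling with 1 series were chosen after seeing the data. Cck was thus higher in bound than in UBS libraries with TMM, with library totals and with the offset, while against UBGS its direction depended on the scaling.

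**Figure D2:**
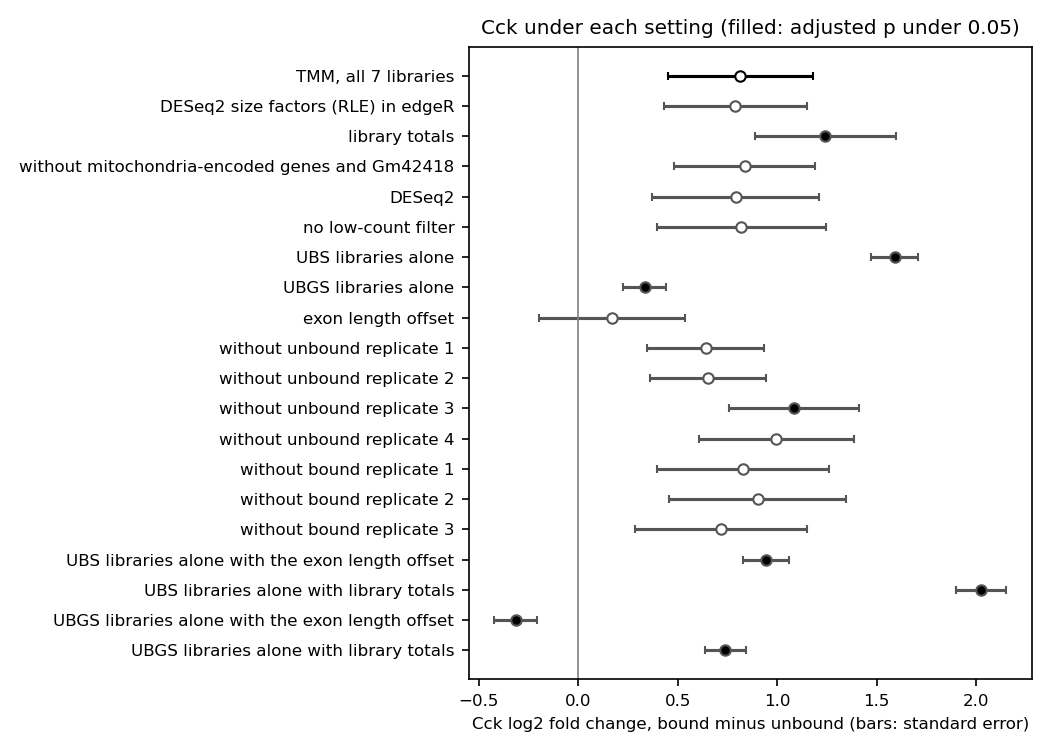
Log2 fold change of Cck, bound minus unbound (horizontal axis, bars are SE), under each scaling, filter, tool and set of libraries; filled points have an adjusted p under 0.05. The value runs from −0.32 (UBGS libraries alone with the exon length offset) to 2.03 (UBS libraries alone with library totals), and the fit over all 7 libraries with TMM gives 0.815.

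Crhbp, whose product binds and sequesters CRH, was abundant and higher in bound libraries. It stood at 82.7, 66.0 and 93.3 CPM in bound replicates 1 to 3, at 18.3 and 13.8 CPM in the UBS libraries and at 11.5 and 11.8 CPM in the UBGS libraries. The groups were well apart, and the difference was 5.84-fold (80.7 ± 13.7 CPM, SD, n = 3, against 13.8 ± 3.15 CPM, SD, n = 4; log2 2.545, SE 0.17, edgeR adjusted p = 3.0e-07). Bound replicate 2 was the lowest and bound replicate 3 the highest bound library for Vip, Crh, Cck and Crhbp alike. The summed level of 8 GABAergic markers followed the same order (2931, 2806 and 3132 CPM in bound replicates 1 to 3), and that of 7 microglia markers was highest in bound replicate 2 (235, 551 and 186.5 CPM, against 62.8 to 91.2 CPM unbound, none of the 7 at 0). The part of either list in these levels was not tested. Without bound replicate 2, or any other single library, Vip, Crh and Crhbp remained higher with log2 fold changes of 3.85 to 4.11, 3.81 to 4.17 and 2.43 to 2.725.

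Of the receptors, Adcyap1r1 (PAC1) had the smallest spread between bound libraries of the 10 genes. The bound libraries held 171.5, 177 and 173.5 CPM, a spread of 1.59% of the mean. The UBS libraries held 126.6 and 95.5 CPM and the UBGS libraries 101 and 99.3 CPM, all below every bound library. The difference was small, at 1.65-fold (174 ± 2.77 CPM, SD, n = 3, against 105.6 ± 14.2 CPM, SD, n = 4; log2 0.72, SE 0.09, edgeR adjusted p = 5.7e-05). It did not pass a test against a minimum of 1.5-fold (edgeR adjusted p = 0.074), which 35% of genes passed. The PACAP gene and its preferred receptor thus differed in opposite directions, Adcyap1 lower and Adcyap1r1 higher in bound libraries.

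Vipr1 (VPAC1) was lower in bound libraries, with a large spread there. Its counts in bound replicates 1 to 3 were 69, 27 and 2, or 1.18, 0.432 and 0.0454 CPM. The unbound libraries held 4.70 CPM in each UBS library and 6.27 and 5.975 CPM in the UBGS libraries. No bound library reached an unbound one, although bound replicates 1 and 3 were far apart. Vipr1 was 9.50-fold lower (log2 −3.25, SE 0.61, 95% interval −4.585 to −1.91, edgeR adjusted p = 0.00076), and the log2 fold change was −4.37 without bound replicate 1 and −2.75 without bound replicate 3. Choroid plexus markers had a like order in bound libraries (a summed level of 52.7, 18.8 and 13.9 CPM in bound replicates 1 to 3). In unbound libraries the order was opposite. The choroid plexus sums were higher in UBS (1438 and 1716 CPM) than in UBGS (1008 and 989.6 CPM), while Vipr1 was lower in UBS. The excitatory, astrocyte, oligodendrocyte and endothelial sums were also lower in bound than in unbound libraries, without the Vipr1 order among the bound libraries. The part of these lists in the Vipr1 level was not tested.

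Vipr2 (VPAC2) was near the lower end of what was measured in every library. The counts were 85, 23 and 9 in bound replicates 1 to 3, and 16, 16, 24 and 18 in unbound replicates 1 to 4. Bound replicate 1 (1.455 CPM) lay above all other libraries, and the other bound libraries (0.368 and 0.204 CPM) lay below all unbound ones (0.374 to 0.564 CPM). No difference was called (log2 0.55, SE 0.63, 95% interval −0.85 to 1.95, edgeR adjusted p = 0.47), and without bound replicate 1 the sign turned (log2 −0.67, edgeR adjusted p = 0.34). Bound replicate 1 thus held the highest bound level of both VPAC receptor genes.

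Cckbr and Crhr1 were at like levels in both groups. Cckbr stood at 4.09, 5.14 and 6.67 CPM in bound libraries, at 4.79 and 5.56 CPM in UBS and at 6.95 and 6.86 CPM in UBGS libraries. The groups overlapped, and no difference was called (log2 −0.19, SE 0.21, 95% interval −0.67 to 0.28, edgeR adjusted p = 0.46). Its sign turned with library totals (0.23) and with the UBS libraries alone (0.03). Crhr1 stood at 2.53, 3.17 and 2.36 CPM in bound libraries, at 1.82 and 2.48 CPM in UBS and at 2.25 and 2.765 CPM in UBGS libraries. It was not called either (log2 0.21, SE 0.24, 95% interval −0.33 to 0.745, edgeR adjusted p = 0.49). With library totals Crhr1 passed (0.64, edgeR adjusted p = 0.043), while the median of all genes under that scaling was 0.43, and with the exon length offset its sign turned (−0.07). In the CCK and CRH systems, Cckbr and Crhr1 were thus uncalled beside ligand and binding-protein genes of which Crh and Crhbp were higher in bound libraries.

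**Figure D3:**
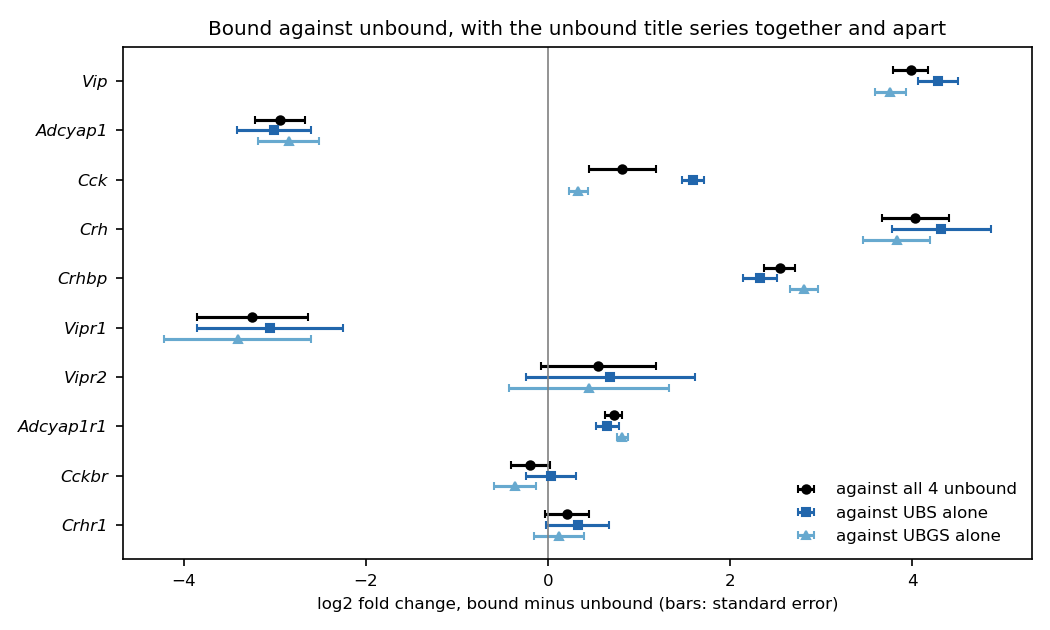
Log2 fold change, bound minus unbound (horizontal axis, bars are SE), of the 10 genes against all 4 unbound libraries and against the UBS and the UBGS libraries alone; the 3 comparisons share the bound libraries. Vip (4.28 and 3.76 against UBS and UBGS), Crh (4.32 and 3.83) and Adcyap1 (−3.01 and −2.85) keep their place whichever series is used, while Cck moves from 1.59 to 0.33.

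Set apart by title series, the other calls kept their direction, with the bound libraries shared by both comparisons. Vip was 19.4-fold higher than in UBS and 13.5-fold higher than in UBGS libraries, and Crh 19.95-fold and 14.2-fold. Crhbp was 5.03-fold and 7.01-fold higher, and Adcyap1r1 1.57-fold and 1.76-fold. Adcyap1 was 8.06-fold and 7.21-fold lower, and Vipr1 8.305-fold and 10.6-fold lower. All of these passed at an edgeR adjusted p of 0.012 or less against either series, where 49.9% (UBS) and 53.9% (UBGS) of all genes tested were called. Within the unbound libraries, Cck was the 1 call among 9 of the 10 genes that passed the filter there, with Crh left out for low counts. Of all 19256 genes tested there, 0.229% were called. That Cck differs was known when the 10 genes were chosen. Vip (log2 −0.54, edgeR adjusted p = 0.30), Vipr1 (−0.38, edgeR adjusted p = 0.27) and Cckbr (−0.415, edgeR adjusted p = 0.26) were measured lower and Crhbp higher (0.46, edgeR adjusted p = 0.24) in UBS without passing. The UBS and UBGS libraries did not overlap for 5 of the 10 genes, beside 50.9% of all genes tested.

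Levels of different genes can be set side by side only per length, here as bound CPM per kilobase of merged exons. Cck led at 228.8 ± 28.9 CPM per kilobase (SD, n = 3), followed by Crhbp at 44.8 ± 7.63, Adcyap1r1 at 26.4 ± 0.420 and Vip at 17.4 ± 2.85 CPM per kilobase. These 4 genes did not overlap with their neighbours in any bound library. Crh at 2.46 ± 0.399 and Cckbr at 1.85 ± 0.453 CPM per kilobase overlapped, and Crhr1 followed at 1.09 ± 0.173 CPM per kilobase. Vipr2, Adcyap1 and Vipr1 came last at 0.151 ± 0.152, 0.117 ± 0.0171 and 0.0953 ± 0.0995 CPM per kilobase, with overlapping libraries. In unbound libraries Cck again came first (130 ± 63.0 CPM per kilobase, SD, n = 4), followed by Adcyap1r1 (16.0 ± 2.15) and Crhbp (7.69 ± 1.75), while Crh was 9th of the 10 (0.149 ± 0.0533). With the longest annotated transcript as the length, the order in bound libraries was unchanged, and the levels of Cck, Vip and Adcyap1r1 became 373.7, 23.3 and 28.5 CPM per kilobase.

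**Figure D4:**
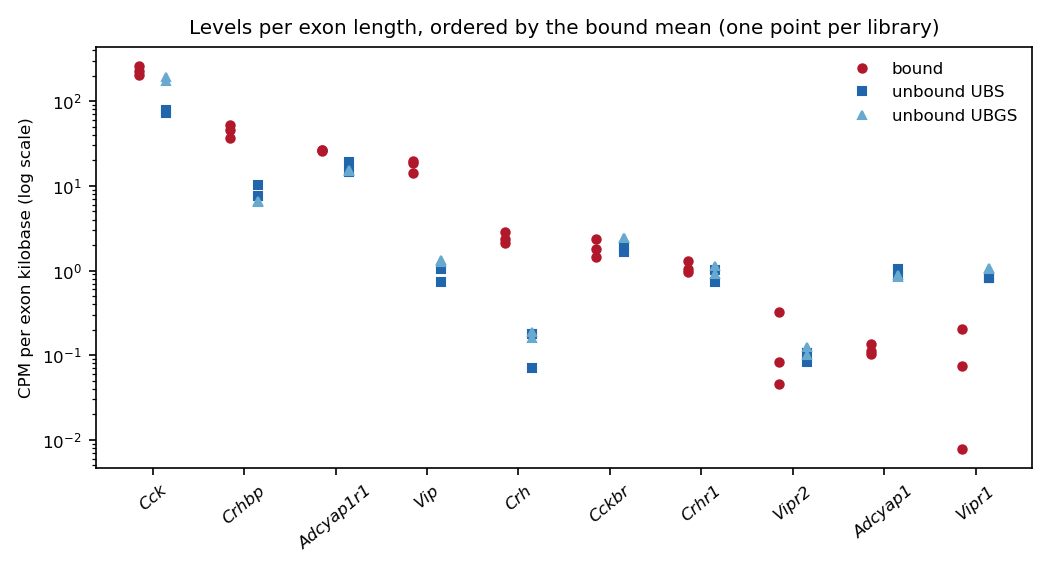
CPM per kilobase of merged exons (vertical axis, log scale) of the 10 genes in order of their bound mean, one point per library. The bound levels run from 228.8 CPM per kilobase for Cck to 0.0953 CPM per kilobase for Vipr1, whose 3 bound libraries spread the widest.

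The deposited counts are per gene, and which exons they cover depends on an annotation release that is not given. In GENCODE M21, all 10 genes are protein-coding and share no exon with another annotated gene. Their loci on mm10 are as follows. Vip (ENSMUSG00000019772) lies at chromosome 10 from 5639218 to 5647617, Adcyap1 (ENSMUSG00000024256) at chromosome 17 from 93199017 to 93206537, and Crh (ENSMUSG00000049796) at chromosome 3 from 19693401 to 19695396. Cck (ENSMUSG00000032532) and Vipr1 (ENSMUSG00000032528) lie close together on chromosome 9, from 121489824 to 121495694 on the minus strand and from 121642716 to 121672954 on the plus strand. Vipr2 (ENSMUSG00000011171) lies at chromosome 12 from 116077726 to 116146261, Adcyap1r1 (ENSMUSG00000029778) at chromosome 6 from 55451978 to 55501451 and Cckbr (ENSMUSG00000030898) at chromosome 7 from 105425731 to 105470898. Crhr1 (ENSMUSG00000018634) lies at chromosome 11 from 104132855 to 104175523 and Crhbp (ENSMUSG00000021680) at chromosome 13 from 95431371 to 95444924.

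Partner genes of the 4 systems were described from lists, by counts and medians beside those of all genes tested (31% higher, 30.7% lower, median log2 −0.01). Of 19 related ligands and receptors, 13 were below the filter, among them the genes of secretin, growth hormone-releasing hormone, the urocortins and the CCK-A receptor, with group means of at most 0.334 CPM. Of the 6 that passed it, 3 were higher and 2 lower. Glp1r, the GLP-1 receptor, was higher (41.7 ± 14.9 against 2.02 ± 0.280 CPM), as was Ramp2, a receptor activity-modifying protein that can associate with VPAC receptors (60.4 ± 8.11 against 39.4 ± 4.855 CPM, not passing the 1.5-fold minimum, edgeR adjusted p = 0.35). Ramp1 was lower (7.03 ± 2.045 against 17.5 ± 2.37 CPM) and so was Glp2r (log2 −0.51), a call lost in several settings, and with library totals against UBGS alone Glp2r stood at 0.04. Crhr2, the other CRH receptor, named here after its values were seen, was higher (3.51 ± 1.28 against 1.004 ± 0.196 CPM, log2 1.81, edgeR adjusted p = 0.00041).

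The cyclic AMP pathway, through which VIP, PACAP and CRH receptors signal, was split, as were all genes tested (31% higher, 30.7% lower, median log2 −0.01). Of 27 genes tested, 11 were higher and 8 lower (median log2 −0.02). Gnal, the Gs-like protein G-olf, was higher (545 ± 17.3 against 221 ± 12.6 CPM, log2 1.30), and Prkaca, a catalytic subunit of protein kinase A, was higher by 1.004. The adenylyl cyclase genes Adcy1 and Adcy9 were lower, with log2 fold changes of −1.88 (234.8 ± 21.6 against 862 ± 106.9 CPM) and −1.79. Among 14 phosphodiesterase genes tested, which break down cyclic nucleotides, 4 were higher and 6 lower (median −0.08). Pde3a (18.5 ± 0.500 against 2.72 ± 1.10 CPM, log2 2.755) and Pde1c (0.96) were higher, and Pde1a (58.7 ± 12.1 against 314.8 ± 18.5 CPM, log2 −2.42) and Pde8a (−2.155) were lower.

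Genes of the Gq and phospholipase C pathway, used by the CCK-B receptor, were more often lower, with 9 of 15 lower and 4 higher (median log2 −0.76). Itpr1 and Itpr2, the inositol trisphosphate receptors that release calcium from stores, were lower (93.0 ± 7.15 against 307.6 ± 12.1 CPM for Itpr1, log2 −1.73, and −2.08 for Itpr2). Against these, the kinase gene Prkcd (77.8 ± 18.6 against 8.98 ± 0.664 CPM, log2 3.12) and the phospholipase gene Plcb4 (78.3 ± 2.735 against 22.1 ± 1.04 CPM, log2 1.82) were higher.

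Of 11 genes of peptide processing and release, 5 were higher and 3 lower (median log2 0.135). Pam, the enzyme that amidates the end of VIP, PACAP, CCK and CRH, was higher (122.8 ± 14.6 against 52 ± 2.97 CPM, log2 1.24), as was Pcsk1n, proSAAS, an inhibitor of prohormone convertase 1 (189.1 ± 33.3 against 40.8 ± 10.6 CPM, log2 2.21). Pcsk2, prohormone convertase 2, and Cpd, a carboxypeptidase, were lower (log2 −1.22 and −1.425). Of 15 markers of VIP and CCK interneurons, 13 were higher and 1 lower (median log2 2.00). A rise of this size was not particular to that list. General GABAergic markers were higher in 8 of 8 (median 3.73) and microglia markers in 7 of 7 (median 2.19). Among the VIP and CCK interneuron markers, Sncg and Tac2 were highest by fold (log2 4.72 and 4.58). The summed level of that list was 1321 to 1586 CPM bound against 621 to 628 CPM unbound. Prox1, also a marker of dentate granule cells, was the lower one (72.8 ± 9.10 against 302.5 ± 12.2 CPM, log2 −2.06).

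**Figure D5:**
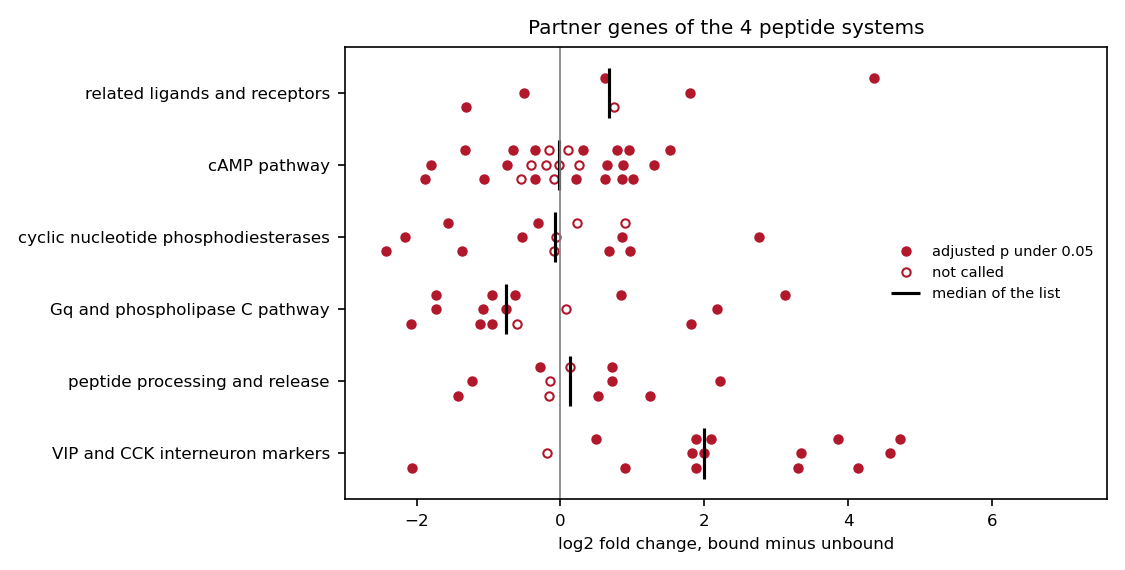
Log2 fold change, bound minus unbound (horizontal axis), of each tested gene in 6 lists of partner genes; filled points have an edgeR adjusted p under 0.05 and black bars are list medians. The interneuron markers lie mostly to the right (median 2.00), the Gq and phospholipase C genes mostly to the left (median −0.76), and the cyclic AMP genes on both sides (median −0.02).

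The profile of each ligand gene over the 7 libraries was set beside 10504 other protein-coding genes, by the root mean square (RMS) difference of log2 CPM after each gene was centred on its own mean. Nearest to Vip was Htr3a, a serotonin-gated channel of interneurons (RMS difference 0.22; 97.2 CPM bound against 6.69 CPM unbound), followed by the predicted gene Gm3500 (0.28). Htr3a was also second nearest to Crh (0.28), between the predicted gene Gm2564 (0.23) and the chemokine gene Ccl19 (0.29). Nearest to Adcyap1 were Rras2 (0.09), Klhl34 (0.10) and Nfia (0.13), the last a transcription factor with 30.8 CPM bound against 220.7 CPM unbound. Nearest to Cck were Swi5 (0.24), Frmd3 (0.25) and Pick1 (0.25), and all 3 had a lower mean in UBS than in UBGS libraries, as for Swi5 with 22.3 and 38.8 CPM. These are descriptions over 7 libraries that fall into 2 groups.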

How the data were processed

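The deposited values are whole-number read counts per Ensembl gene, not normalized. The submitters' processing notes name mm10, STAR 2.5.3a and HTSeq. Annotation release, strand setting and the handling of multiply matching reads: not given in the sources used here. Symbols, positions and exon lengths came from GENCODE M21 (37693 of 39017 IDs matched). Genes were filtered with filterByExpr, scaled by TMM and tested in R 4.3.3 with edgeR 4.0.16 (glmQLFit with robust estimation, glmQLFTest), with Benjamini-Hochberg adjustment over all genes at 0.05, for 3 bound against 4 unbound and for 2 UBS against 2 UBGS libraries. SEs and 95% intervals were derived from the F statistic. The test was checked on simulated data. In bound against unbound it recovered 66 of 100 genes changed by 1 on the log2 scale and 90 of 100 changed by 2. In UBS against UBGS it recovered 69 and 85 of 100. False calls were 4.29% and 4.94% of calls. Only 100 genes were changed at each size, whereas 12076 of 19563 genes were called in the real bound against unbound comparison. The recovered and false shares may therefore not carry over to the real data. Such data also cannot show whether the real libraries are independent. Alternatives included DESeq2 1.42.0, other scalings, an exon length offset and leaving out each library. Counting error weighs most on Crh, Vipr1, Vipr2, Adcyap1, Crhr1 and Vip, which had under 100 counts in at least 1 library.

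The 10 genes, the lists and the rules were chosen with earlier results of these data known. Named are the 10 genes, Gad2 and Slc17a7, in each of the 6 lists up to 2 genes with the largest rise and 2 with the largest fall that passed, had groups without overlap and averaged 5 CPM or more, and the 3 genes most like each ligand gene (log2 CPM with a prior count of 2, mean of at least 5 CPM). One result under this rule is not reported here.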

Additional observations from a re-analysis of the deposited data

Results flagged for a closer look

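The difference of Cck from the bound libraries was not the same for the title series of the unbound libraries (UBS minus UBGS log2 −1.279, edgeR adjusted p = 0.0048). This was known when the genes were chosen, so the value gives its size and is no independent evidence of it. Of the other 9 genes, 8 were tested in that comparison without a call, and Crh was below the filter on low counts. Its levels were 95.5 and 102.6 CPM in UBS, 253 and 227 CPM in UBGS and 263 to 338 CPM in bound libraries. What UBS and UBGS stand for is not labelled, so the series and whatever else differed between these libraries cannot be told apart. None of the 10 genes had a single unbound library that stood apart from the other 3 beyond Dixon's 95% limit, and Adcyap1r1 in unbound replicate 1 (126.6 CPM) came nearest to it. This limit looks for a single library apart, so it cannot show a split such as that of Cck between the series.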

How the results depend on the processing

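No paired analysis was possible because the labels give no pairing, and replicate numbers here only name libraries. In bound against unbound, Vip, Crh, Crhbp, Adcyap1 and Vipr1 kept their call in each of 20 settings, and Adcyap1r1 in all but the 1.5-fold minimum. Over all genes, calls numbered 6072 higher and 6004 lower, and became 9284 and 3704 with library totals, 3246 and 3608 with the 1.5-fold minimum, and 2825 and 3166 lower with library totals against UBS and UBGS alone, settings which, like those that combine the series with the exon length offset, were chosen after seeing the data. Signs turned for Vipr2 without bound replicate 1 (leaving out 1 library gave −0.67 to 0.971), Cck against UBGS alone with the exon length offset (−0.32), Cckbr with library totals (0.23), with UBS alone (0.031) and with library totals against UBS (0.46) and UBGS (0.036) alone, Crhr1 with the exon length offset (−0.073, and −0.157 against UBGS alone), and Glp2r with library totals against UBGS alone (0.04). Cck passed without unbound replicate 3 (1.085, edgeR adjusted p = 0.027), and its adjusted p ranged up to 0.72. In UBS against UBGS, 18 genes were higher and 26 lower, and 7 and 15 with library totals, 173 and 109 with DESeq2, and 60 and 44 with no low-count filter. Leaving out 1 library gave 4 to 3596 higher and 11 to 3793 lower, where the single library left in a series is taken to scatter as the rest do; of the 10 genes, 0 to 2 were then higher and 1 to 4 lower. Cck passed in each of its 9 settings (−1.355 to −1.20), and Adcyap1r1 changed sign without unbound replicate 1 (−0.068 to 0.332 over the libraries left out). Scatter also differed between pairs of libraries within a group. The chi-square per degree of freedom between 2 libraries was 5.57 for unbound replicates 3 and 4. It was 25.0 to 46.3 for the other pairs within a group, with 30.4 for unbound replicates 1 and 2. Tests against UBGS alone and between the series draw on the UBGS pair, and which animals gave these libraries is not labelled. The causes were not tested.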
